A study of Mus musculus with 12 samples.

Results

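Fibroblasts from Ezh2b mutant mouse embryos were compared with fibroblasts from wild-type littermates, gene by gene over the whole transcriptome. The comparison holds 6 of the 12 RNA libraries of the study, 3 labelled Ezh2b mutation and 3 labelled Ezh2b wild type, chosen by these labels alone. The cells of every group were mouse embryonic fibroblasts (MEFs), the connective tissue cells that grow out of dissociated embryos, kept in high-glucose medium with serum and antibiotics. The other 6 libraries, 3 Ezh2a mutant and 3 of their own wild-type littermates, enter below only as reference levels and for tests of a difference between the mutations. The labels give no strain, sex, embryo age or passage, and they do not say which sequence change the name Ezh2b stands for. They also do not say whether the 3 libraries of a group came from separate embryos or cultures, so the p-values measure the spread between these libraries, which may be technical.

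Ezh2 is the enzyme of PRC2, a Polycomb complex that methylates a lysine near the start of histone H3. Genes that carry the trimethylated mark are usually silent, and PRC2 is best known for keeping developmental regulators, the Hox genes among them, off in cells where they do not belong. The title of the series concerns cryptic splice sites that give EZH2 isoforms. Counts per gene do not separate isoforms.

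Expression is given in CPM, a gene's count relative to the size of its library after scaling by the trimmed mean of M-values (TMM). A positive log2 fold change means a higher level in the mutant. A gene is said to have risen or fallen where the Benjamini-Hochberg adjusted p of edgeR's quasi-likelihood test over 15708 genes was under 0.05. The 6 libraries held 28811482 to 54070380 counts each. Wild-type replicate 3 was the deepest, and mitochondrial transcripts made up 2.13% of it, against 1.72% to 1.81% of the other 5. All 22 fibroblast markers listed were expressed, and they held 7.21% to 7.40% of counts in the mutant and 6.51% to 6.95% in the wild type. Epcam, which marks epithelium, had at most 5 counts in any of the 6 libraries. The endothelial list held 0.0164% to 0.0168% of counts in the mutant and 0.0122% to 0.0126% in the wild type, and its part in the results was not tested. Of its 9 genes tested 3 rose and 4 fell, with Flt1 up by 1.03 (SE 0.05), Kdr down by 1.11 (SE 0.08) and Tek down by 1.54 (SE 0.23), all growth factor receptors of vessels. Pecam1 had at most 4 counts in a library, and Cdh5 had 9 in all in the mutant and none in the wild type.

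Ezh2 itself did not pass the test (chromosome 6, 47530139 to 47595341, GRCm38). Its level was 35.4, 33.6 and 36.4 CPM in the mutant libraries and 33.8, 35.8 and 35.3 CPM in the wild-type libraries. The ranges overlapped almost wholly, with a difference of 0.00 on the log2 scale (SE 0.05, adjusted p = 0.969). The same gene was at 14.5 ± 0.554 CPM in the Ezh2a mutant and 30.3 ± 0.201 CPM in its wild type (SD, n = 3 each). A mutation that acts on splicing or on the protein need not alter this count, so the level neither bears out the genotype labels nor goes against them. A list of 34 tested genes held PRC2, the Polycomb complex PRC1 and the demethylases that remove the mark of PRC2. Of these, Ezh2 included, 1 rose (up to 3 in other settings) and 6 fell. Over all genes tested, 26.1% changed in either direction. Eed and Suz12, the core partners of Ezh2, had log2 fold changes of -0.05 (SE 0.05) and -0.11 (SE 0.05) and did not pass. Its paralog Ezh1 had 0.16 (SE 0.06, adjusted p = 0.0560). Both Suz12 and Ezh1 lay close to the threshold, and Suz12 (adjusted p from 0.0342) and Ezh1 (from 0.0393) crossed it under some other settings. The PRC2 accessory subunit Aebp2 fell by 0.25 (SE 0.05) and the histone chaperone Rbbp7 by 0.18 (SE 0.03), both by less than 1.5-fold. Within 1 Mb of Ezh2, 2 of 17 genes changed, Zfp783 (0.30, SE 0.10) and Atp6v0e2 (0.28, SE 0.09). Both calls were lost in several alternative settings, with adjusted p up to 0.146 for Zfp783 and 0.0838 for Atp6v0e2. Within 5 Mb, 12 of 62 genes rose and 9 fell (33.9%, against 26.1% of all genes). That wider window holds the HoxA cluster and Npy, both reported below, and a part of their position in their changes was not tested.

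In all, 4105 of 15708 genes changed in the Ezh2b mutant, 2200 upward (14% of those tested) and 1905 downward (12.1%). The counts by gene list are to be read beside these shares. At an average log2 CPM of 4 or more, 1218 of 8169 genes rose and 1293 fell. Most changes were small: 2800 of the 4105 were under 1.5-fold, and the median size was 0.35 on the log2 scale. Large changes leaned upward. At least 2-fold, 623 genes were higher (3.97%) and 160 lower (1.02%). At least 4-fold, 196 were higher and 23 lower. Of the 623, 403 averaged under 1 CPM in the wild type, and 81 belonged to 4 lists of macrophage and leukocyte genes that together had 111 genes tested. In 607 of the 623 every mutant library lay above every wild-type library, as in 19.2% of all genes tested. In 154 of the 160 every mutant library lay below, as in 17.9%. Scaling by library totals alone turned the split of all changed genes to 1910 up and 2525 down, and the 2-fold counts were then 599 and 175. Without wild-type replicate 3 the counts were 2166 up and 1776 down.

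**Figure D1:**
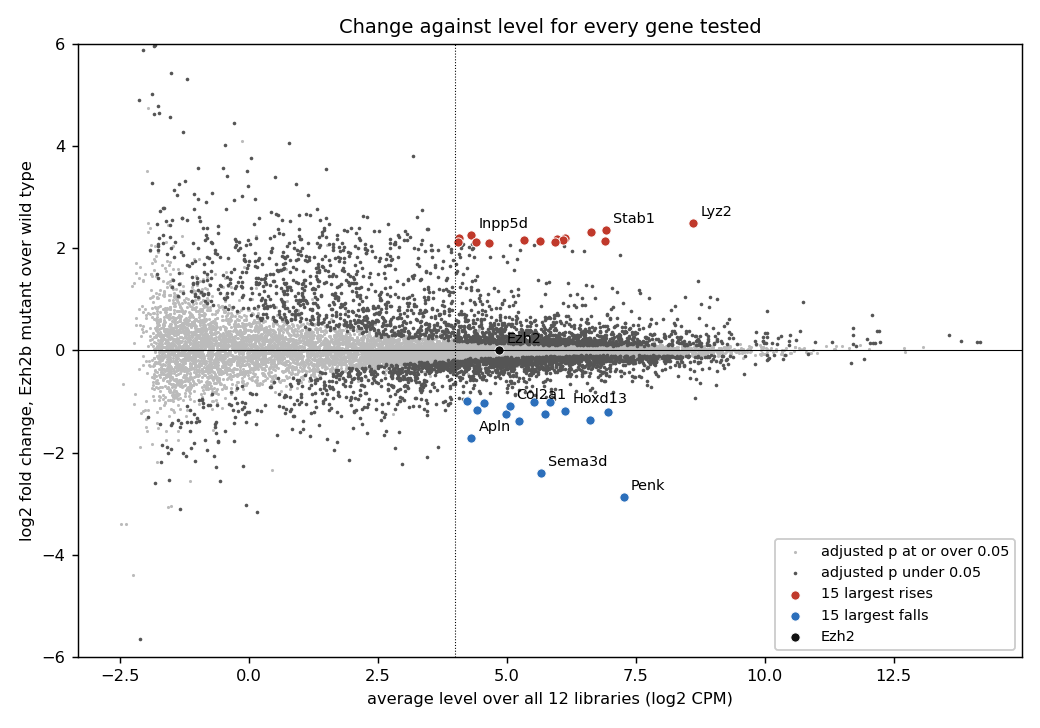
Each point is 1 of the 15708 genes tested, with its average log2 CPM over all 12 libraries on the horizontal axis and its log2 fold change, Ezh2b mutant over wild type, on the vertical axis. Dark grey points have an adjusted p under 0.05, the dotted line marks the level of 4 above which genes were named by size of change, and 9 genes lie beyond the vertical axis at 6. The 15 largest rises sit in a narrow band between 2.1 and 2.5, while the 15 largest falls spread from about -1 to -2.87, with Penk, Sema3d and Apln farthest from 0.

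The 15 largest rises among genes at an average log2 CPM of 4 or more were all genes known from macrophages or other leukocytes. That average covers all 12 libraries, so genes high in the Ezh2a libraries could pass with low levels in the Ezh2b ones. Dock2 was at 8.96 and 2.08 CPM in the Ezh2b mutant and wild type, and at 27.2 and 28.6 CPM in the Ezh2a mutant and wild type. Mmp13, given below with a larger rise, did not reach the level, so the make-up of the 15 partly follows from this rule. Lyz2, the lysozyme of macrophages and neutrophils (chromosome 10, 117277331 to 117282321), stood at 203, 206 and 201 CPM in the mutant and at 39.7, 34.6 and 33.9 CPM in the wild type. Every mutant library was about 5 to 6 times as high as any wild-type library. The gene rose by 2.50 on the log2 scale (SE 0.05, adjusted p = 1.5e-17). Csf1r, the receptor through which macrophages receive their survival signal, was at 38.9, 41.1 and 39.9 CPM in the mutant and 11, 10.5 and 9.75 CPM in the wild type (1.95, SE 0.05, adjusted p = 3.9e-15). Its groups were likewise far apart.

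The other rises named by size were of much the same size. Stab1, a scavenger receptor, rose by 2.35 (SE 0.08), and Fcrls, an Fc receptor-like protein of tissue macrophages, by 2.31 (SE 0.07). Inpp5d, the lipid phosphatase SHIP1 of blood cells, rose by 2.26 (SE 0.11). Laptm5, a lysosomal membrane protein of leukocytes, rose by 2.19 (SE 0.07), and Mpeg1, a pore-forming protein of phagocytes, by 2.14 (SE 0.05). The 3 chains of complement C1q, which macrophages secrete, rose together: C1qa by 2.12, C1qb by 2.17 and C1qc by 2.18. Adgre1, which encodes the F4/80 antigen, rose from 4.95 ± 0.171 to 21.8 ± 2.45 CPM. Dock2, a regulator of leukocyte movement, and Cybb, the catalytic subunit of the phagocyte oxidase, each rose by 2.12. Siglec1, a sialic acid receptor, rose by 2.1 (SE 0.18). Lilr4b and Lilrb4a, near-identical neighbouring receptors whose reads the counting could mix, rose by 2.19 and 2.16. The leukocyte genes past 2-fold had a median of 2.02, with quartiles at 1.81 and 2.14. Both sets were picked for large rises, which narrows their spread. Over all genes tested, the receptor list ran from -0.30 to 3.23 and the secreted and lysosomal list from -0.41 to 3.25. The transcription factors ran from -0.47 to 2.30 and the signalling genes from -0.47 to 2.62.

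By role, receptors came first. Of 37 receptors and surface proteins 35 rose and 1 fell, with a median of 2.01 against -0.01 over all genes. Cd86, a costimulatory ligand, rose by 3.23 (SE 0.38), P2ry12, a nucleotide receptor, by 2.77 (SE 0.27), and Fcgr2b, the inhibitory Fc receptor, by 2.75 (SE 0.18). Itgam, the CD11b integrin chain, rose by 2.06 (SE 0.07). Mertk, a receptor for dying cells that is not confined to macrophages, fell by 0.30 (SE 0.07). Folr2, a folate receptor of resident macrophages, did not pass (0.10, SE 0.21).

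Among secreted and lysosomal proteins, 23 of 30 rose and none fell by edgeR, nor did any by DESeq2 or at an unadjusted p under 0.05. Pf4, a chemokine of platelets and some macrophages, rose by 3.25 (SE 0.45), Trem1, an activating receptor, by 2.96 (SE 0.38), and Apoe by 1.88 (SE 0.06). Ctsd, a cathepsin of most cells, rose by 0.24 (SE 0.04), and Cd63, a lysosomal membrane protein, had 0.00 (SE 0.03).

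Of 16 leukocyte transcription factors 11 rose and 1 fell, and the fall was lost in 3 settings, among them without mutant replicate 2 and without wild-type replicate 3. Spi1, which encodes PU.1, the factor that specifies macrophages, was at 4.87, 4.29 and 3.99 CPM in the mutant and at 0.578, 0.792 and 1.15 CPM in the wild type. The groups were well apart, and the log2 fold change was 2.29 (SE 0.20). Irf8 (2.08, SE 0.16) and Ikzf1 (2.05, SE 0.16), both regulators of blood cell development, rose to a like extent, and Tal1 by 2.30 (SE 0.38). Runx1, which fibroblasts express as well, rose by only 0.68 (SE 0.04). Of 28 leukocyte signalling genes 25 rose and 1 fell. Rac2, the blood cell Rac GTPase, rose by 2.62 (SE 0.19). Arhgdib, an inhibitor of small GTPases, fell by 0.47 (SE 0.04).

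The macrophage receptor genes summed to 0.0338% to 0.0379% of counts in the mutant and 0.0107% to 0.0118% in the wild type, 3.19 times as much on average. In the Ezh2a experiment the same genes held 0.113% to 0.125%, in mutant and wild type alike, so all 6 Ezh2b libraries lay below those 6. An exact two-sided permutation test of the 3 mutant against the 3 wild-type libraries gave p = 0.1, the smallest that 3 against 3 allows. In bulk RNA, fewer cells of a type and less RNA per cell cannot be told apart, so these shares do not say how many macrophages a culture held. Lists of other blood cells were mostly below the count filter, though some members rose. Of 18 granulocyte and mast cell markers 1 was tested, Ms4a2, a chain of the mast cell Fc receptor, and it rose by 2.11 (SE 0.54). That list held 8.7e-05% to 0.000111% of counts in the mutant and 2.0e-05% to 3.7e-05% in the wild type, a ratio of 3.27 that rests on few counts. The ratio was 1.15 for the macrophage secreted and lysosomal list and 1.20 for erythroid and megakaryocyte markers. It was 1.00 for T, B and NK cell markers and 1.01 for dendritic cell and MHC class II genes, of which 0 of 5 tested changed. Of 4 erythroid and megakaryocyte markers tested 2 rose, Ppbp, a platelet chemokine, by 0.61 (SE 0.10). Of 2 T, B and NK cell markers tested 1 rose, Il7r, a cytokine receptor, by 1.26 (SE 0.33). Cd3e and Hbb-bs had no count in any of the 6 libraries, S100a8 none, and Ly6g 2 in each group. Ccr2, a monocyte receptor, had 2 counts over the 3 mutant libraries and none in the wild type, Lyve1 had 5 and none, and Cd163 none in either.

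**Figure D2:**
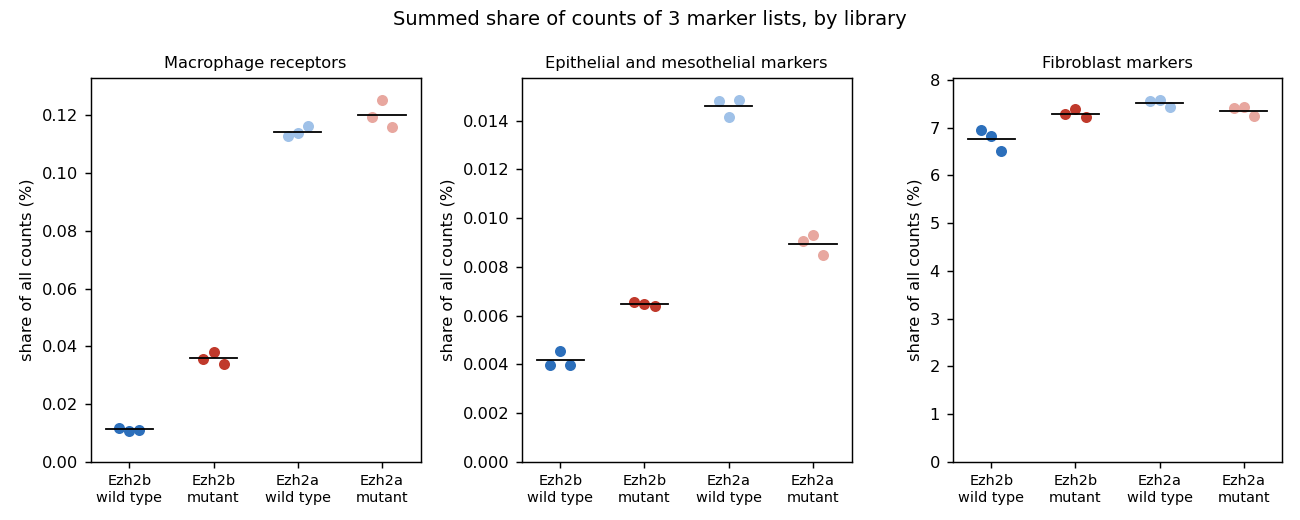
Summed share of all counts, in percent, of the genes of 3 marker lists in each of the 12 libraries, with a black line at each group's mean of 3 libraries. Macrophage receptors are lowest in the Ezh2b wild type (0.0107% to 0.0118%), higher in the Ezh2b mutant (0.0338% to 0.0379%) and highest in both Ezh2a groups, the epithelial and mesothelial list has the Ezh2b libraries lowest as well, and fibroblast markers lie between 6.51% and 7.58% in all libraries.

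Of 10 genes tested from a list of macrophage growth factors made by fibroblasts, 4 rose and 2 fell, against 14% and 12.1% of all genes. Their part in the macrophage gene changes was not tested. Csf1, the main ligand of Csf1r, was at 303, 277 and 299 CPM in the mutant and 285, 300 and 284 CPM in the wild type. The groups overlapped, and Csf1 differed by 0.01 on the log2 scale (SE 0.04, adjusted p = 0.824). Il34, the other ligand, did not pass either (0.04, SE 0.23). Kitl, the stem cell factor that supports blood progenitors and mast cells, fell from 26.8 ± 1.62 to 11.9 ± 1.17 CPM (-1.16, SE 0.08). Cx3cl1, the chemokine bound by the macrophage receptor Cx3cr1, fell by 0.56 (SE 0.06). Ccl2 and Cxcl12, both chemokines, rose by 0.26 (SE 0.07) and 0.18 (SE 0.04). Ccl8 had 6, 12 and 4 counts in the mutant and none in the wild type. Taking the floor of 3 counts per library for the wild type, its level was at least 2.33-fold higher in the mutant.

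Promoter sequence is shown for a pair of the macrophage genes, since the list moved together, and PU.1 and related ETS factors are known to bind the letters AGGAAG on either strand. The windows are the 250 bases before the annotated start, from RefSeq on GRCm38.p6, written 5′ to 3′ on the strand of the gene, with each AGGAAG or its reverse complement in capitals. Lyz2 lies at chr10:117282273-117282522, minus strand, and Itgam at chr7:128062390-128062639, plus strand.
Lyz2: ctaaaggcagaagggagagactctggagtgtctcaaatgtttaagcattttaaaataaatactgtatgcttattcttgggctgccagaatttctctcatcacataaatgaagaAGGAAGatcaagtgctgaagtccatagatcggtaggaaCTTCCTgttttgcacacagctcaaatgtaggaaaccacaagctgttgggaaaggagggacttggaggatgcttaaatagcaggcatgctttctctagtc
Itgam: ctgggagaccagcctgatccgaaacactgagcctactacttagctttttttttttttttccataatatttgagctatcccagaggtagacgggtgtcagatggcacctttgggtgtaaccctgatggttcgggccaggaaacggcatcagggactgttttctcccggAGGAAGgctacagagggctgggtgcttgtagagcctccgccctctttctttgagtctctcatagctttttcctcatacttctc
The Lyz2 window held 2 matches and the Itgam window 1. Of the 37 receptor genes tested, 24 had a promoter in the table, and 15 of these held the motif (62.5%). Among secreted and lysosomal genes it was in 14 of 26 (53.8%), among leukocyte signalling genes in 10 of 21 (47.6%), and over all tested genes with a promoter in 3930 of 12238 (32.1%). A match is a stretch of letters, and binding was not measured in these RNA libraries.

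Mesothelial genes rose as well. Of 17 epithelial and mesothelial markers 14 rose and 1 fell, with a median of 1.67. Upk3b, a uroplakin that marks mesothelium, was at 6.79, 7.33 and 6.47 CPM in the mutant and 1.45, 1.27 and 1.37 CPM in the wild type. Each mutant library was more than 4 times as high as the wild-type ones (2.33, SE 0.12, adjusted p = 1.2e-11). Muc16, a mucin of mesothelial surfaces, rose by 2.66 (SE 0.24), and Wt1, the Wilms tumour factor of mesothelium, by 2.39 (SE 0.26). Aldh1a2, which makes retinoic acid, rose by 2.18 (SE 0.13). Msln, which encodes mesothelin, rose by 0.95 (SE 0.08), and Krt19, a simple keratin, fell by 0.70 (SE 0.08). Gata4, a factor of heart and coelomic lining, went from 0.0642 ± 0.0693 to 0.487 ± 0.0903 CPM (2.95, SE 0.55). Rspo1, a Wnt agonist of coelomic and gonadal lining, was at 0.193, 0 and 0 CPM in the wild type and 0.747, 0.854 and 0.666 CPM in the mutant. Summed, the list held 1.55 times as much in the mutant as in the wild type, 0.00638% to 0.00657% of counts in the mutant and 0.00397% to 0.00456% in the wild type. Epcam had 8 counts over the mutant libraries and 9 over the wild-type ones, and Cdh1, the epithelial cadherin, 26 and 29.

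**Figure D3:**
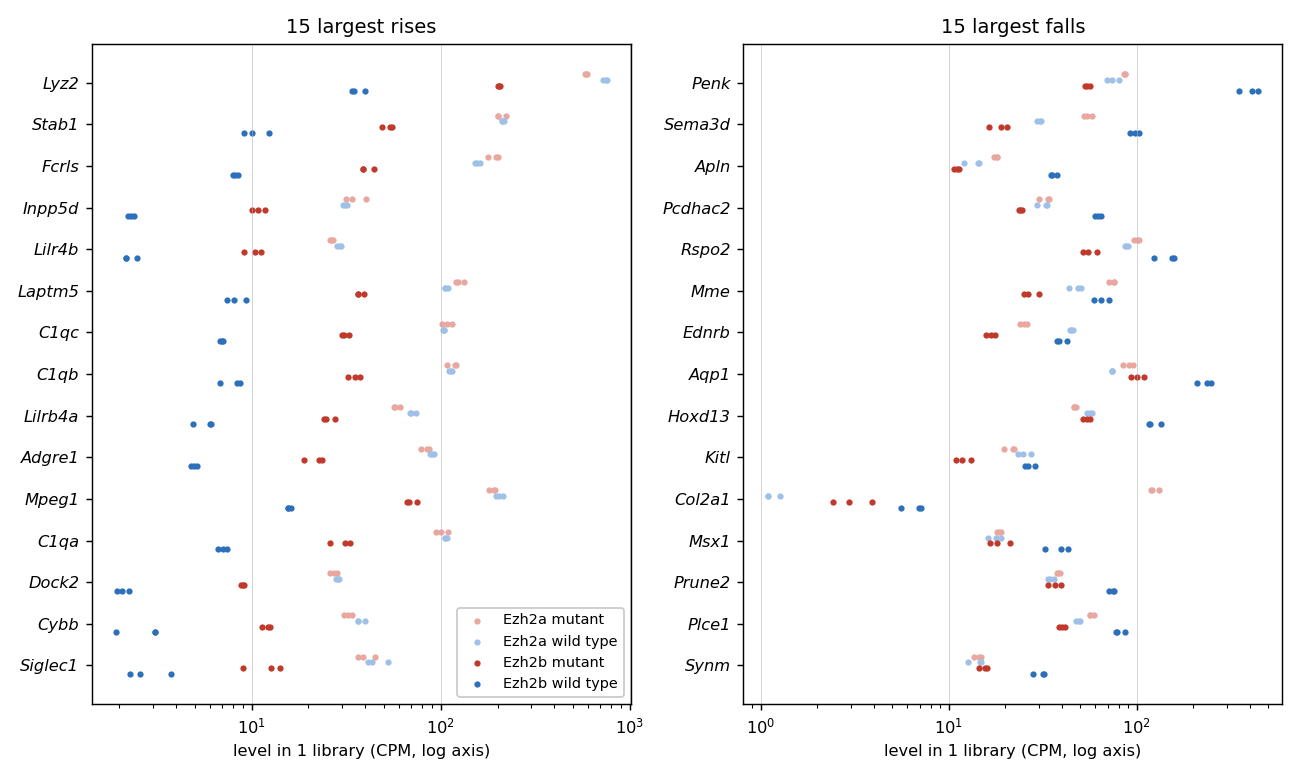
Level in each of the 12 libraries, in CPM on a log axis, of the 15 genes that rose most (left) and the 15 that fell most (right) in the Ezh2b mutant at an average log2 CPM of 4 or more; each dot is 1 library. For every rise the order is the same, with Ezh2b wild type lowest, Ezh2b mutant next and the Ezh2a libraries highest. Lyz2 was at 36.1, 203 and, in the Ezh2a groups, 589 and 742 CPM. The average covers all 12 libraries, so rises at low Ezh2b levels could enter only with high Ezh2a levels, and their order partly follows from this. For Penk the Ezh2b wild type stands alone at 349 to 441 CPM and the other 9 libraries lie between 52.7 and 86.2 CPM.

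Penk showed the largest of the 15 falls. It encodes proenkephalin, the precursor of the enkephalin opioid peptides, and lies at chromosome 4, 4133531 to 4138819. It was at 54.6, 56.3 and 52.7 CPM in the mutant and 441, 349 and 409 CPM in the wild type. The wild-type libraries stood about 6 to 8 times as high, and the fall was 2.87 on the log2 scale (SE 0.07, adjusted p = 5.1e-16). In the Ezh2a experiment the gene was at 85.9 ± 0.398 CPM in the mutant and 74.5 ± 5.47 CPM in the wild type.

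Sema3d, a secreted repellent of growing axons and cells (chromosome 5, 12383385 to 12588948), was at 20.5, 18.9 and 16.3 CPM in the mutant and 98.1, 92.0 and 103 CPM in the wild type. No library of one group came near the other, and the gene fell by 2.40 (SE 0.06, adjusted p = 2.0e-15). Apln, the ligand of the apelin receptor of blood vessels, was at 11.4, 11.1 and 10.6 CPM in the mutant and 35.3, 35.1 and 37.7 CPM in the wild type. Its libraries were equally well apart, and it fell by 1.71 (SE 0.07). Pcdhac2, a clustered protocadherin, fell by 1.37 (SE 0.06). Rspo2, a secreted Wnt agonist needed for limb growth, went from 145 ± 18.5 to 56.1 ± 4.79 CPM (-1.37, SE 0.07).

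Mme, the peptidase neprilysin, which cuts enkephalins, fell by 1.25 (SE 0.07). Ednrb, an endothelin receptor, fell by 1.24 (SE 0.06), and Aqp1, a water channel, by 1.2 (SE 0.06). Col2a1, the cartilage collagen, fell from 6.55 ± 0.84 to 3.09 ± 0.76 CPM (-1.09, SE 0.13). Its average over all libraries reached the level for naming through the high Ezh2a mutant libraries, given below. Lrrtm3, Esrrg and Comp, reported below, had larger falls from higher Ezh2b wild-type levels but did not reach that level. The make-up of the 15 falls thus partly follows from this rule, as for the rises. Prune2 fell by 1.01 (SE 0.05), Plce1, a phospholipase C, by 1.01 (SE 0.05), and Synm, an intermediate filament protein, by 0.99 (SE 0.07). Hoxd13, Kitl and Msx1 complete the 15. In the Ezh2a wild type Hoxd13, Msx1, Synm and Prune2 stood at 56.0, 17.6, 14.1 and 34.8 CPM. The Ezh2b mutant, at 54.2, 18.5, 15.3 and 36.7 CPM, was near these levels. Kitl and Ednrb, at 25.2 and 44.8 CPM in the Ezh2a wild type, were near or above the Ezh2b wild type (26.8 and 39.7 CPM). Sema3d, Apln, Pcdhac2, Rspo2, Mme and Plce1 lay between the Ezh2b groups, and Aqp1 and Col2a1 below both. None of the 30 genes named by size of change, nor Ezh2, crossed the threshold in any of the 14 alternative settings run.

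Neuropeptide genes beside Penk were mixed. Of 17 precursors and hormones tested 4 rose and 5 fell, against 14% and 12.1% of all genes. Adm, the vasodilator adrenomedullin, fell by 0.81 (SE 0.06), and Stc1, a stanniocalcin, by 0.62 (SE 0.13). Npy, neuropeptide Y, rose by 1.66 (SE 0.32), and Inhbb, an activin subunit, by 0.87 (SE 0.06). Of 13 processing and receptor genes 4 rose and 3 fell. The prohormone convertase Pcsk5 rose from 6.36 ± 0.56 to 14.7 ± 0.78 CPM (1.21, SE 0.09), while its relative Pcsk6 fell by 0.55 (SE 0.05) and the amidating enzyme Pam by 0.30 (SE 0.04). The opioid receptors Oprm1 and Oprd1 had no count in any of the 6 libraries, and Oprk1 had 4 counts, all in the wild type.

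Hox genes encode the transcription factors that give cells their position along the body and the limb. Genes of low group number act toward the head end and the trunk, and groups 10 to 13 mark the tail end and the far part of the limb. Group by group, 20 of 25 genes of groups 1 to 9 rose and none fell by edgeR or DESeq2 (median 0.84). Hoxd9 was the 1 gene of these lower at an unadjusted p under 0.05 (-0.29, SE 0.14). In groups 10 to 13 with the Evx genes, 1 of 10 rose and 8 fell (median -0.83). In HoxA the log2 fold changes passed from 1.11 for Hoxa3 (SE 0.16) through -0.10 for Hoxa9 (SE 0.08) to -1.32 for Hoxa13 (SE 0.14), and in HoxD from 1.45 for Hoxd3 (SE 0.17) through -0.29 for Hoxd9 (SE 0.14) to -1.18 for Hoxd13 (SE 0.05). In the Ezh2a mutant 8 of the 10 genes of groups 10 to 13 fell against their own wild type and 0 rose (median -0.49). Of the 25 of groups 1 to 9, 4 rose and 6 fell there, where 19.8% of all genes changed. By the test of the difference, the Ezh2b effect was lower for 5 of the 10 and higher for 3.

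Hoxd13, which patterns digits (chromosome 2, 74668310 to 74671599), was at 51.5, 56.5 and 54.6 CPM in the mutant and 118, 116 and 135 CPM in the wild type. The groups did not overlap, and the adjusted p was 2.6e-12. Evx2, which lies beside Hoxd13, was at 3.63, 4.07 and 3.27 CPM in the mutant and 7.81, 7.71 and 8.36 CPM in the wild type (-1.12, SE 0.11). Hoxb5 showed the largest Hox rise, from 0.739, 0.448 and 1.26 CPM to 3.09, 3.92 and 2.28 CPM (1.83, SE 0.26). Hoxb9 rose from 25.4 ± 2.03 to 40.3 ± 1.14 CPM (0.66, SE 0.06). Antisense and overlapping transcripts are frequent in these clusters, and a strand setting is not given in the sources used here, so part of such counts may come from the other strand.

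**Figure D4:**
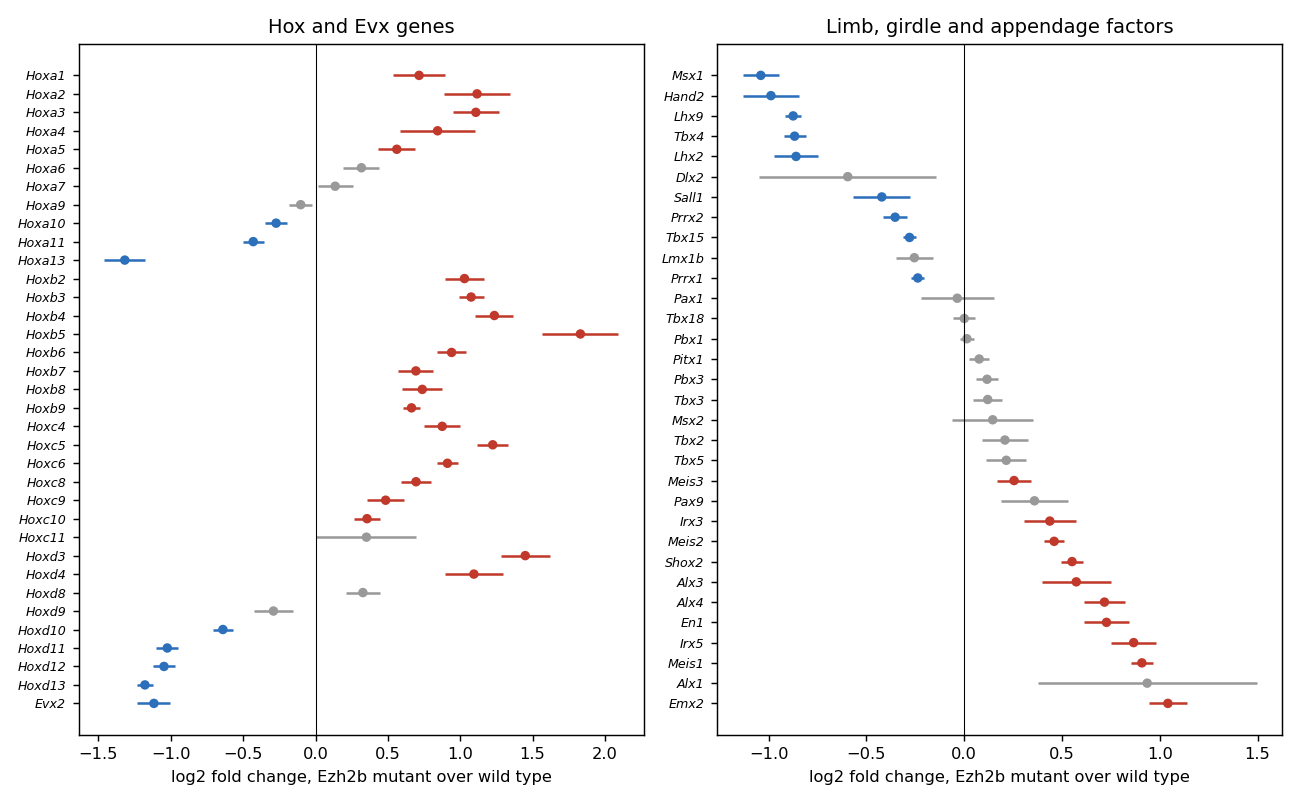
Log2 fold change, Ezh2b mutant over wild type, of the Hox and Evx genes in cluster order (left) and of most of the limb, girdle and appendage factors in order of size (right); bars are 1 standard error either side, red and blue mark adjusted p under 0.05 upward and downward, and grey marks the rest. Along HoxA and HoxD the values pass from above 0 at the low group numbers to -1.32 at Hoxa13 and -1.18 at Hoxd13, no HoxB or HoxC gene is blue, and Dlx1, with no count in the wild type, is not drawn.

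Among limb, girdle and appendage factors 12 of 34 rose and 9 fell, against 14% and 12.1% of all genes. Those that fell include factors of the limb bud. Msx1, of the bud's far mesenchyme, went from 38.2 ± 5.30 to 18.5 ± 2.34 CPM (-1.04, SE 0.09). It was at 18.4 ± 0.437 CPM in the Ezh2a mutant and 17.6 ± 1.43 CPM in its wild type. Hand2, of the bud's posterior part, fell by 0.99 (SE 0.14), and Lhx9 by 0.87 (SE 0.04). Tbx4, the hindlimb T-box gene, was at 27.3, 26.7 and 26.7 CPM in the mutant and 51.1, 49.9 and 46.5 CPM in the wild type. Its groups were well apart (-0.87, SE 0.06), while its forelimb counterpart Tbx5 did not pass (0.22, SE 0.10; 0.32 and adjusted p = 0.0328 without mutant replicate 3) and neither did Pitx1 (0.08, SE 0.05). Emx2, a factor of the shoulder girdle and urogenital tissue, rose by 1.04 (SE 0.10), and Meis1, of the near part of the limb, by 0.91 (SE 0.06).

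Of 47 other developmental factors 14 rose and 17 fell, against 14% and 12.1% of all genes. Esrrg, an orphan nuclear receptor, was at 4.59, 4.2 and 5.04 CPM in the mutant and 17.3, 16.8 and 17.6 CPM in the wild type. It fell by 1.91 (SE 0.11), with no overlap. Foxl1 and Foxf2, forkhead factors of mesenchyme, fell by 1.2 (SE 0.21) and 1.16 (SE 0.19), and Gata3 by 1.17 (SE 0.12). Barx1 (1.25, SE 0.16) and Pou3f3 (1.17, SE 0.22) rose. The macrophage and mesothelial shares given above differed between these same libraries, and their part in the Hox and factor changes was not tested.

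Signals between cells shifted by ligand. Fgf5 fell from 7.53 ± 0.92 to 1.72 ± 0.17 CPM (-2.15, SE 0.14), and Fgf10, the limb and lung fibroblast growth factor, by 0.79 (SE 0.09). Among Wnt genes 10 of 28 rose and 8 fell, against 14% and 12.1% of all genes. Rspo3 fell by 0.80 (SE 0.07), as its relative Rspo2 did, while the ligands Wnt4 (1.76, SE 0.27) and Wnt2b (1.09, SE 0.16) rose. Igfbp5 rose from 310 ± 22.5 to 644 ± 45.1 CPM (1.05, SE 0.06) and Igf1 by 0.90 (SE 0.08), both secreted by fibroblasts, and Igfbp2 fell by 0.74 (SE 0.05). Tgfa, an epidermal growth factor receptor ligand, fell by 1.95 (SE 0.38).

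Guidance and adhesion genes likewise moved both ways. Of 30 semaphorins, plexins and neuropilins 9 rose and 6 fell, where 14% of all genes tested rose and 12.1% fell. Plxna4, a semaphorin receptor, rose by 1.54 (SE 0.10), and Nrp1, a co-receptor, had -0.03 (SE 0.04). Slit3 rose by 0.85 (SE 0.05), and Unc5c, a netrin receptor, fell by 0.91 (SE 0.06). Of 28 synaptic adhesion and calcium channel genes 8 rose and 9 fell. Lrrtm3, a synaptic adhesion protein, fell from 24.1 ± 1.51 to 5.62 ± 0.74 CPM (-2.08, SE 0.09), Cacna2d3, a calcium channel subunit, by 1.95 (SE 0.17), and Kirrel3 by 1.74 (SE 0.16). Cadm1 rose by 1.60 (SE 0.14). Chloride channel Ano1 fell by 1.65 (SE 0.11), and the calcium-activated potassium channel Kcnma1 rose by 1.42 (SE 0.12).

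The fibroblasts' own programme moved by smaller steps. Of 22 fibroblast markers 15 rose and 4 fell, with a median of 0.17. Fap, a surface protease of activated fibroblasts, rose by 1.17 (SE 0.08), and the small proteoglycan Dcn by 0.81 (SE 0.06). S100a4 fell by 0.53 (SE 0.07). Of 26 contractile genes 13 rose and 3 fell, with a median of 0.18. Actg2, a smooth muscle actin, was at 236, 214 and 232 CPM in the mutant and 105, 101 and 89.6 CPM in the wild type. Each mutant library had more than 2 times the level of any wild-type one (1.21, SE 0.06). Myh11, smooth muscle myosin, rose by 1.10 (SE 0.06), and Acta2, the usual marker of myofibroblasts, by 0.44 (SE 0.04).

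Matrix genes changed too. Of 32 proteases and inhibitors 17 rose and 6 fell. Mmp13, a collagenase, was at 8.92, 10.5 and 8.46 CPM in the mutant and 0.675, 0.448 and 0.787 CPM in the wild type. It rose by 3.80 (SE 0.15, adjusted p = 5.6e-13), with every mutant library more than 10 times as high. Mmp9, a gelatinase also made by macrophages and osteoclasts, rose by 1.80 (SE 0.12), and Mmp2, the gelatinase of fibroblasts, had 0.00 (SE 0.04). Adamts1 and Adamts5, which cut proteoglycans, fell by 0.56 (SE 0.05) and 0.36 (SE 0.04). Tendon genes divided, with 7 of 20 up and 5 down, or 7 and 8 of 21 without a filter on low counts. Thbs4 fell by 2.23 (SE 0.16), Comp by 1.90 (SE 0.10) and Scx, the tendon transcription factor, by 0.50 (SE 0.10), whereas Thbs2 (0.94, SE 0.04), Tnmd (0.71, SE 0.09) and Tnc (0.69, SE 0.04) rose. Acan, the cartilage proteoglycan, rose by 2.64 (SE 0.18), to 2.97 CPM, as Col2a1 fell. Sox9, the factor that drives both in cartilage, had -0.05 (SE 0.07).

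Cell division genes fell together by small amounts. Of 38 genes of G2 and mitosis 37 fell and none rose by edgeR or DESeq2, with a median of -0.36. At an unadjusted p under 0.05 the counts were also 37 and none, and Mybl2, a factor that drives mitotic genes, was the 1 that did not pass (-0.07, SE 0.09). Mki67, the Ki-67 antigen of dividing cells, was at 241, 234 and 242 CPM in the mutant and 299, 305 and 298 CPM in the wild type. The groups were apart by far more than their spread, and the fall was 0.33 (SE 0.04, adjusted p = 1.2e-06). Nusap1 (-0.49, SE 0.08), Anln (-0.48, SE 0.04) and Ect2 (-0.47, SE 0.06), which act in the spindle and in cell cleavage, fell most. Of 38 replication genes 27 fell by edgeR and 25 by DESeq2, and none rose by either tool or at an unadjusted p under 0.05. Mcm5, of the replicative helicase, fell by 0.40 (SE 0.05). Of the cell cycle inhibitors, Cdkn1c rose by 0.65 (SE 0.11) and Cdkn1a by 0.33 (SE 0.04), and Cdkn1b (-0.27, SE 0.06) and Cdkn2c (-0.30, SE 0.07) fell. In the Ezh2a mutant 36 of the 38 mitotic genes rose against their own wild type and none fell, where 19.8% of all genes changed in that comparison. The difference between the effects of the mutations passed its test for 37 of the 38, against 26.5% of all genes.

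Promoters of Ccnb1, the cyclin of mitosis, and Plk1, a mitotic kinase, are shown because mitotic genes are known for CCAAT boxes, bound by NF-Y, and for the elements TTTGAA and TTTAAA of the cell cycle. The windows are again the 250 bases before the start (RefSeq, GRCm38.p6), 5′ to 3′ on the strand of the gene, with these letters in capitals wherever they occur on either strand. Ccnb1 lies at chr13:100786487-100786736, minus strand, and Plk1 at chr7:122159185-122159434, plus strand.
Ccnb1: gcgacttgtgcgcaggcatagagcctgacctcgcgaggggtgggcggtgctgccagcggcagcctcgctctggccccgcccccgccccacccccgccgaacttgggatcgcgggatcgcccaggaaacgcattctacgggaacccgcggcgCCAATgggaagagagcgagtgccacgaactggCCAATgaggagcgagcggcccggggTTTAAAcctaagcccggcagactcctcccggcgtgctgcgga
Plk1: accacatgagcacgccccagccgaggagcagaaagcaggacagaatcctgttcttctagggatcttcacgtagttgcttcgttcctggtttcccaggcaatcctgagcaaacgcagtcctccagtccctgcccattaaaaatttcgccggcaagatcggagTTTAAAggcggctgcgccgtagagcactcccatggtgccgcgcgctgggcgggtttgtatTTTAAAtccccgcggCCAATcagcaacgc
Each window held 3 matches, which did not overlap. Ccnb1 fell by 0.38 (SE 0.04) and Plk1 by 0.35 (SE 0.05). Of the 38 mitotic genes, 31 had a promoter in the table. CCAAT was in 25 of them (80.6%) and in 4900 of 12238 over all tested genes (40.04%), TTTGAA in 12 (38.7%, against 13.3%) and TTTAAA in 7 (22.6%, against 10.6%). Of 31 replication genes with a promoter, 19 held CCAAT (61.3%), 5 TTTGAA (16.1%) and 3 TTTAAA (9.68%).

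**Figure D5:**
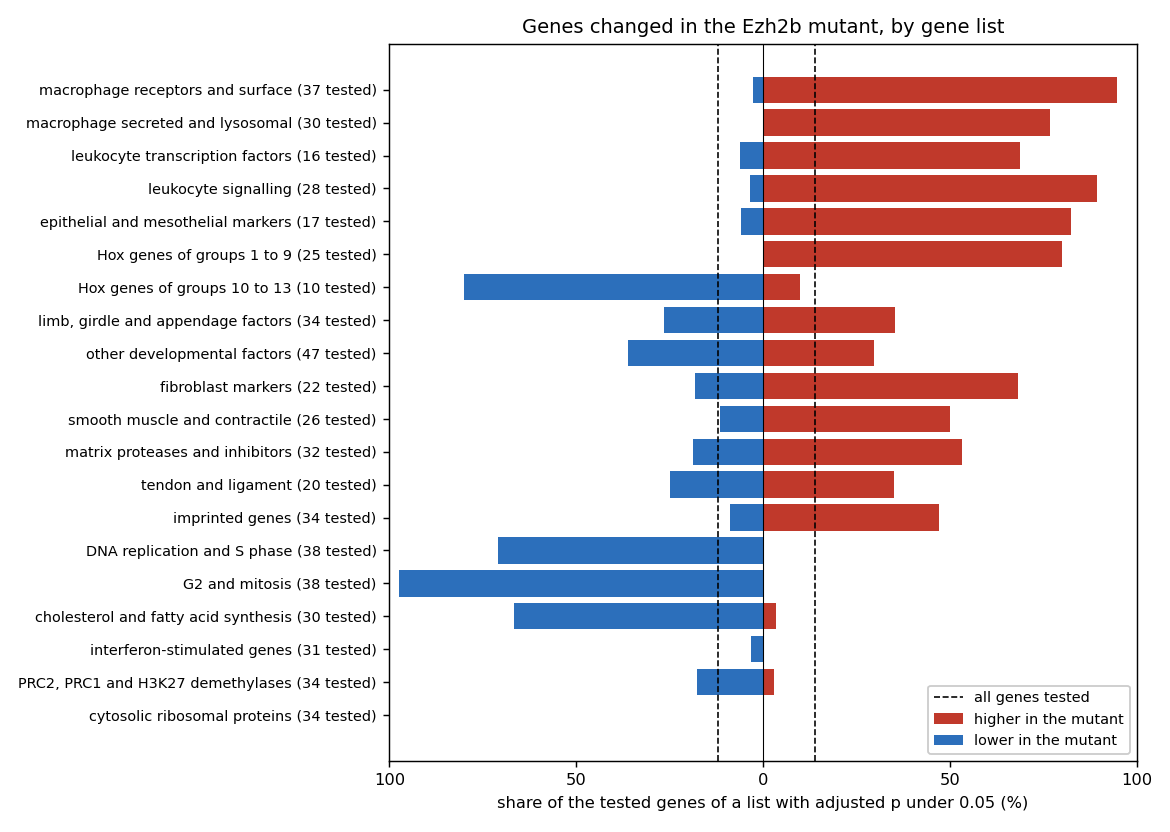
Share of the tested genes of 20 lists that rose (red, to the right) or fell (blue, to the left) in the Ezh2b mutant, in percent, with dashed lines at the shares over all genes tested (14% up, 12.1% down). The macrophage, leukocyte, mesothelial and low-numbered Hox lists lie almost wholly to the right, the mitotic, replication and high-numbered Hox lists to the left, and the ribosomal list has no gene on either side.

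Cholesterol and fatty acid synthesis fell with the division genes, in 20 of 30 genes with 1 up and a median of -0.18. Idi1, an enzyme of the isoprenoid pathway, fell by 0.41 (SE 0.05). Of 24 genes of complement and antigen presentation 4 rose and 9 fell. B2m, the light chain of class I molecules, was at 337, 365 and 298 CPM in the mutant and 447, 423 and 451 CPM in the wild type. The groups did not overlap, and the fall was 0.40 (SE 0.06, adjusted p = 7.6e-05). H2-D1, a class I heavy chain, fell by 0.42 (SE 0.08) and Psmb8, an immunoproteasome subunit, by 0.56 (SE 0.12). H2-T23, another class I gene, was called higher (0.47, SE 0.14, adjusted p = 0.0154), but not by DESeq2 (adjusted p = 0.0615), without mutant replicate 1 (0.0651) or without mutant replicate 2 (0.141). The complement component C3 rose by 1.4 (SE 0.19). Of 31 interferon-stimulated genes only Ifit2 passed (-0.43, SE 0.09), and 2 lower and 1 higher had an unadjusted p under 0.05. This count depended on the fit: without a filter on low counts 11 were lower and 1 higher, with the replicate block 5 were lower and 1 higher, and without mutant replicate 2 there were 2 lower. Il1rl1, the receptor for interleukin 33, fell from 750 ± 63.7 to 394 ± 34.3 CPM (-0.93, SE 0.07), and the neutrophil chemokine Cxcl5 by 0.91 (SE 0.07).

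Imprinted genes, expressed from 1 parental allele, mostly rose where they changed, 16 of 34 up and 3 down, or 1 down without mutant replicate 3 or without wild-type replicate 1. Peg3, a paternally expressed zinc finger gene, was at 359, 386 and 362 CPM in the mutant and 210, 191 and 204 CPM in the wild type. The groups stood well apart (0.87, SE 0.04, adjusted p = 3.3e-12), and its neighbours Usp29 (1.16, SE 0.19) and Zim1 (0.72, SE 0.11) rose too. Zdbf2 rose by 1.18 (SE 0.08) and Peg10 fell by 0.42 (SE 0.06). Of 34 cytosolic ribosomal proteins none passed in either direction by edgeR or DESeq2, and 1 in each direction had an unadjusted p under 0.05; values ran from -0.11 to 0.08. Among chromatin proteins the remodeller Chd7 rose from 0.719 ± 0.208 to 2.28 ± 0.233 CPM (1.66, SE 0.18), and Hmga2 (-0.52, SE 0.07) and Hmga1 (-0.50, SE 0.07), architectural proteins of growing cells, fell. The part of the macrophage and mesothelial shares in the cell cycle, matrix and imprinted gene changes was not tested.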

How the data were processed

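RNA from 12 MEF libraries was made by poly-A selection and random-hexamer priming, per the labels' protocols. Reads were handled with fastp 0.21.0, HISAT2 2.1.0 and StringTie 2.1.5, on GRCm38, per the submitters' processing notes, which also list edgeR 4.2.1. The authors deposited raw whole-number counts per gene symbol, with no normalization. Strand setting, counter and annotation: not given in the sources used here. Across the table, a count of 1 was rarer than a count of 2 (3357 against 13267 entries), so counts may not be single reads.

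All 35602 symbols were read, of which 11119 were 0 throughout. edgeR 4.0.16 (R 4.3.3, limma 3.58.1) kept 15708 with filterByExpr and fitted 1 mean per group to all 12 libraries with TMM factors (0.977 to 1.03) and the quasi-likelihood test with 8 residual degrees of freedom. The Benjamini-Hochberg adjustment covered all 15708 genes. Standard errors come from the F statistic and the fold change of each gene. DESeq2 1.42.0, other filters and scalings, the 6 Ezh2b libraries alone, a replicate block and each library left out were alternatives. The procedure was tested on simulated data.

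Named genes are the 15 largest rises and falls at an average log2 CPM of at least 4 whose libraries did not overlap, Ezh2, and up to 4 per direction of each of 54 lists. A further 30 genes were named for their role, after their values were seen. The members and lists were chosen with earlier results of these data known. Positions are from GENCODE M21 and promoters from RefSeq, matched by symbol. Genes with near-identical copies, such as Lyz2 and Lyz1 or the clustered protocadherins, may share reads. Some genes of the lists are counted but not reported here by name.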

Additional observations from a re-analysis of the deposited data

Results flagged for a closer look

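Results are listed here because the effect of the Ezh2b mutation differed from that of the Ezh2a mutation by a test of the difference itself (edgeR, 12 libraries). In all, 4168 of 15708 genes did so. Among the genes named by size, each value below is the Ezh2b effect minus the Ezh2a effect on the log2 scale. These genes were picked for large Ezh2b effects, which are part of this difference, so its direction is largely set by the choice. The macrophage and leukocyte genes had differences of 2.83 for Lyz2, 2.44 for Lilrb4a, 2.39 for Stab1, 2.34 for Lilr4b, 2.34 for Cybb and 2.29 for Siglec1. They were 2.26 for Adgre1 and for Mpeg1, 2.19 for Dock2 and for C1qa, 2.14 for C1qb and 2.11 for C1qc. The smallest of them were 2.08 for Inpp5d, 2.01 for Fcrls and 1.95 for Laptm5.

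Among the falls the difference was -7.84 for Col2a1, -3.26 for Sema3d, -3.08 for Penk and -2.10 for Apln. It was -1.89 for Mme, -1.54 for Rspo2, -1.49 for Aqp1, -1.41 for Pcdhac2 and -1.24 for Plce1. It was -1.15 for Prune2, -1.10 for Msx1, -1.02 for Synm, -0.92 for Hoxd13 and for Kitl, and -0.39 for Ednrb. Col2a1 stood at 123.4 ± 6.36 CPM in the Ezh2a mutant and 1.15 ± 0.0956 CPM in its wild type (SD, n = 3 each). For Ezh2 itself the difference was 1.07.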

How the results depend on the processing

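The counts of changed genes kept to within 1.5 times their reported values in all 14 alternatives. Leaving out each library in turn gave 1930 to 2177 genes up, 1465 to 1776 down, 591 to 623 up and 142 to 166 down at least 2-fold, and 3737 to 4321 with a different effect in the 2 mutations. DESeq2 gave 2169 up and 1692 down. Of the 4105 genes called, 3165 to 3961 were called again, and 0 in the opposite direction. Of 5452 values of named genes under an alternative, 5219 kept direction and side of the threshold, 217 lost the call, 15 gained one and 1 reversed. That 1 was Rplp0, a ribosomal protein gene, at -0.070 (adjusted p = 0.0407) without wild-type replicate 3; its values with each library left out ran from -0.070 to 0.090, and the cause was not tested. Scaling by library totals moved the share of higher calls from 53.6% to 43.1%, and upper quartile scaling to 57.3%.

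The replicate numbers did not pair the samples. Deviations of same-numbered libraries correlated at -0.022, 0.005 and -0.005. A fit with the replicate number as a block gave 1769 up and 1459 down, 536 and 146 of them at least 2-fold. Genes under 1 CPM rest on few counts, and 403 of the 623 large rises started there. With 3 libraries a group, an exact permutation test of 1 value cannot go below 0.1.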

Other observations

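Gm33272, which RefSeq lists as a long noncoding RNA near the end of chromosome Y that pairs with X, was chosen here after its values were seen. It had no count in the 3 mutant libraries and 151, 159 and 321 counts in the wild-type libraries. In the Ezh2a experiment it had 328, 248 and 333 counts in the mutant and 491, 366 and 381 in the wild type. With a floor of 3 counts per library its level was at least 61.9-fold lower in the mutant. It was the 1 gene at 0 in every mutant library with at least 40 counts in every wild-type library, and 0 genes showed the reverse. Other chromosome Y genes were expressed in both groups. Kdm5d was at 38.6 CPM in the mutant and 36.4 CPM in the wild type, Uty at 32.3 and 31.0 CPM, and Ddx3y at 98.6 and 101.6 CPM. None of these passed the test. Eif2s3y rose, from 59.3 to 72.3 CPM. LOC108168645, a noncoding RNA near Gm33272, fell, with 9, 17 and 9 counts in the mutant and 27, 19 and 32 in the wild type. The cause of the Gm33272 change was not tested.

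Outside the leukocyte lists, other genes of middling or high level rose, again chosen after their values were seen. Syt13, a synaptotagmin, rose by 1.68, Pla2g7, a secreted phospholipase, by 1.49, and Ankrd1, a stretch-responsive gene, by 1.46. Ccn3, a matricellular protein, rose by 1.37, Ptprz1, a receptor phosphatase, by 1.34 and Crispld2 by 1.32.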
